A study of Mus musculus with 18 samples.

Results

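RNA from bone marrow-derived macrophages (BMMs) of GILZ KO and WT mice was compared after treatment with lipopolysaccharide (LPS). The comparison comprised the 6 LPS libraries that the labels assign to these genotypes, 3 of GILZ KO and 3 of WT, out of 18 libraries in all, and 12164 of 38887 listed genes had enough counts to be tested. The comparison therefore covers all genes that passed this filter. Most genes named below were picked from them by their values, by the rule given at the end. The question addressed was how macrophages that lack GILZ differ from WT macrophages while they respond to LPS.

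GILZ, the glucocorticoid-induced leucine zipper, is encoded by Tsc22d3. It is induced by glucocorticoids and is known to dampen inflammatory transcription, among others by binding NF-κB and AP-1 proteins. LPS, a component of the outer membrane of Gram-negative bacteria, activates Toll-like receptor 4. One branch of its signalling runs through MyD88 to NF-κB and MAP kinases and induces cytokines, and the other runs through TRIF to IRF3, interferon-β and the interferon-response genes.

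WT animals were B6.129P2-Lyz2tm1(cre)Ifo/J mice, which express Cre recombinase from the Lyz2 promoter. GILZ KO animals carried the same Cre and Tsc22d3 f/f, that is, loxP sites around Gilz exon 6, so that recombination was limited to cells that express Lyz2. The labels give female C57BL/6J mice, and the study used mice aged 10 to 23 weeks. How many copies of the Cre allele each animal carried was not given in the sources used here. Marrow cells were differentiated for 6 days with M-CSF, seeded, and treated for 4 h with 100 ng/ml LPS, and each of the 3 replicates per genotype was an independent preparation. The untreated libraries of the same genotypes, and those of GILZ TG macrophages, in which the same Cre switches on a Gilz cDNA placed in the Rosa26 locus, are used only for values given beside the results.

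The files give an expected count, which is an estimated number of reads per gene, and TPM, a level scaled by transcript length and library total. Between 14583055 and 26614977 reads were counted on genes per library, with a median of 25813123 in WT and 15491518 in GILZ KO, so that genes with few counts were measured less precisely in GILZ KO. The fragment length implied by the files also separated the genotypes, at 80.87 to 84.9 bases in WT and 87.68 to 87.82 bases in GILZ KO, and its part in the results was not tested beyond the fit with a length term. The 12 macrophage markers summed to between 5510 and 6010 TPM in WT and between 5610 and 5990 TPM in GILZ KO. Those of mast cells, T and NK cells and erythroid cells stayed at 0.54 TPM or below. Neutrophil markers summed to between 21.3 and 77.8 TPM in WT and between 53.5 and 66.9 TPM in GILZ KO, with Ly6g at 0. The sums for WT and GILZ KO were 25.8 to 41.4 and 18.3 to 34.7 TPM for stromal fibroblasts, and 17.9 to 29.7 and 25.1 to 29.6 TPM for endothelial cells, with Cldn5 at 0. They were 19.7 to 22.6 and 16.9 to 19.5 TPM for B cells, where the groups did not overlap. Dendritic cell markers reached 2.24 to 4.25 and 3.01 to 3.9 TPM, and osteoclast markers 311.0 to 421.0 and 262.0 to 405.0 TPM. None of the marker genes passed the adjusted threshold, and the part of other cell types in the results was not tested. In bulk RNA, fewer cells of a type and less RNA per cell cannot be told apart.

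The targeted gene was low in both genotypes after LPS. Tsc22d3 (ENSMUSG00000031431, chromosome X of GRCm38 from 140539528 to 140600659) was at 4.56, 5.81 and 5.09 TPM in the WT replicates and at 2.96, 3.28 and 2.5 TPM in the GILZ KO replicates. Every GILZ KO library lay below every WT library. The log2 fold change of -0.69 (standard error 0.14) did not pass the threshold (adjusted p = 0.15 from edgeR, between 0.00605 and 0.619 over 17 alternatives). Without treatment the same gene was at 16.5 ± 2.08 TPM in WT and 2.34 ± 0.461 TPM in GILZ KO (SD, n = 3), with a log2 fold change of -2.74 (adjusted p = 2.16e-05 from edgeR). In WT the level after LPS was below the untreated level in each replicate. The values of the gene as a whole include exons outside the loxP sites. The other members of its family gave log2 fold changes of 0.05 for Tsc22d1, 0.02 for Tsc22d2 and 0.02 for Tsc22d4. Of 21 tested genes of the TSC22 family and glucocorticoid-responsive genes, 8 were higher and 13 lower in GILZ KO, with a median log2 fold change of -0.123.

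Lyz2, which encodes lysozyme and is the locus of the Cre insertion in both genotypes, had the smallest p of all genes tested. It was at 6766.01, 8033.57 and 9465.86 TPM in WT and at 57.6, 67.74 and 63.26 TPM in GILZ KO. Lyz2 fell by 7.02 on the log2 scale (standard error 0.38, adjusted p = 1.79e-05 from edgeR). Its neighbour Lyz1, the Paneth cell lysozyme gene, is a close copy 0.01 Mb away and can share reads with it. Lyz1 was at 2.35, 2.52 and 3.03 TPM in WT against 3.6, 3.48 and 4.98 TPM in GILZ KO (log2 fold change 0.59, adjusted p = 0.514 from edgeR). Hmga2, which encodes a chromatin protein of the high mobility group, lies 3.08 Mb from Lyz2. It was at 87.77, 72.77 and 74.12 TPM in WT and at 50.39, 48.15 and 47.1 TPM in GILZ KO, and it fell by 0.69 on the log2 scale (standard error 0.09, adjusted p = 0.0159 from edgeR). Of 34 tested genes within 5 Mb of Lyz2, 12 were higher and 22 lower in GILZ KO (median -0.044), and Hmga2 was the one called. Of 27 tested genes within 5 Mb of Tsc22d3, 14 were higher and 13 lower, with none called.

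Of the 12164 genes tested, 10 (0.0822%) had an adjusted p-value under 0.05, with 5 higher and 5 lower in GILZ KO. Nnt, the mitochondrial transhydrogenase that makes NADPH and in which the C57BL/6J strain is known to carry a deletion, was at 10.75, 10.28 and 11.7 TPM in WT and at 22.75, 20.17 and 19.67 TPM in GILZ KO. Nnt rose by 0.93 on the log2 scale (standard error 0.07, adjusted p = 0.00044). Wdfy1, a FYVE-domain protein described as an adaptor of Toll-like receptor signalling through TRIF, was at 19.44, 15.37 and 15.47 TPM in WT and at 33.25, 35.71 and 38.04 TPM in GILZ KO. It rose by 1.45 (standard error 0.12, adjusted p = 0.000674), and the estimated effective length of its transcripts differed as well, at 2487 bases in WT and 3199 bases in GILZ KO.

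Dynlt1b, a dynein light chain, rose from 104.92, 88.51 and 95.93 TPM to 171.03, 175.71 and 187.54 TPM (log2 fold change 0.87, standard error 0.1, adjusted p = 0.00818). It belongs to a family of near-identical copies, so reads may be split among them. A pair of genes annotated as processed pseudogenes completed the higher group. Gm6977 was at 7.43, 9.88 and 8.55 TPM in WT and at 27.94, 27.74 and 18.32 TPM in GILZ KO (1.49, adjusted p = 0.0138), and Gm11560 at 2.07, 2.89 and 2.31 TPM against 7.96, 6.05 and 5.74 TPM (1.44, adjusted p = 0.0484). Both can share reads with the genes they were copied from.

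Among the genes that fell, Ide, the insulin-degrading enzyme, had the least spread between replicates, with 45.75, 44.52 and 47.13 TPM in WT and 20.85, 20.4 and 21.6 TPM in GILZ KO (-1.18, standard error 0.11, adjusted p = 0.00158). Igf2bp3, an RNA-binding protein that stabilises mRNAs, fell from 8.41, 7.51 and 6.26 TPM to 2.91, 2.36 and 2.98 TPM (-1.43, standard error 0.17, adjusted p = 0.00818). Gm27177, annotated as an antisense transcript on chromosome 14 from 69582164 to 69683286, was listed at 4.54, 3.19 and 4.53 TPM in WT and at 0 in every GILZ KO library. Its counts were 68 to 150 in WT, which makes it at least 26.7-fold lower in GILZ KO at a floor of 3 counts per library (adjusted p = 0.0138 from edgeR). In none of the 10 called genes did the libraries of the genotypes overlap. Lyz2, Nnt, Wdfy1 and Ide passed in each of 17 alternatives, including each library left out in turn. Hmga2, Igf2bp3, Dynlt1b, Gm6977, Gm11560 and Gm27177 did not pass in all of them, and none of the 10 changed direction. The count of 10 was 23 without WT replicate 3, 4 without WT replicate 2 or without GILZ KO replicate 2, and 100 with DESeq2.

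GILZ TG macrophages, which expressed Tsc22d3 at 127.42, 140.56 and 127.22 TPM after LPS, were compared with the same WT libraries, so the values of both comparisons are not independent and are given side by side. For the genes that passed in every alternative, the differences of GILZ TG from WT had the same sign as those of GILZ KO. In GILZ TG, Lyz2 was at 22.15, 41.87 and 70.25 TPM (-7.52, adjusted p = 3.56e-06 by edgeR), and Nnt was at 16.8, 18.92 and 18.93 TPM (0.74, adjusted p = 0.00108). Wdfy1 was at 22.63, 31.78 and 22.86 TPM (0.98, adjusted p = 0.00706) and Ide at 29.3, 24.17 and 21.49 TPM (-0.79, adjusted p = 0.0116). Whether these differences from WT follow the level of Tsc22d3 transcript was not tested.

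Igf2bp3, at 2.51, 2.3 and 1.61 TPM in GILZ TG (-1.77, adjusted p = 0.000833), and Gm27177, at 0.18, 0.96 and 0 TPM (adjusted p = 0.00986), were also below WT. The other 4 called genes did not pass in GILZ TG, with -0.37 for Hmga2 (adjusted p = 0.109), 0.84 for Gm11560 (adjusted p = 0.121), 0.2 for Dynlt1b (adjusted p = 0.391) and -0.08 for Gm6977 (adjusted p = 0.886). GILZ KO was not tested directly against GILZ TG. The share of all genes that passed in GILZ TG is not given here, so how many called genes passed there is not read as a result about them.

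**Figure D1:**
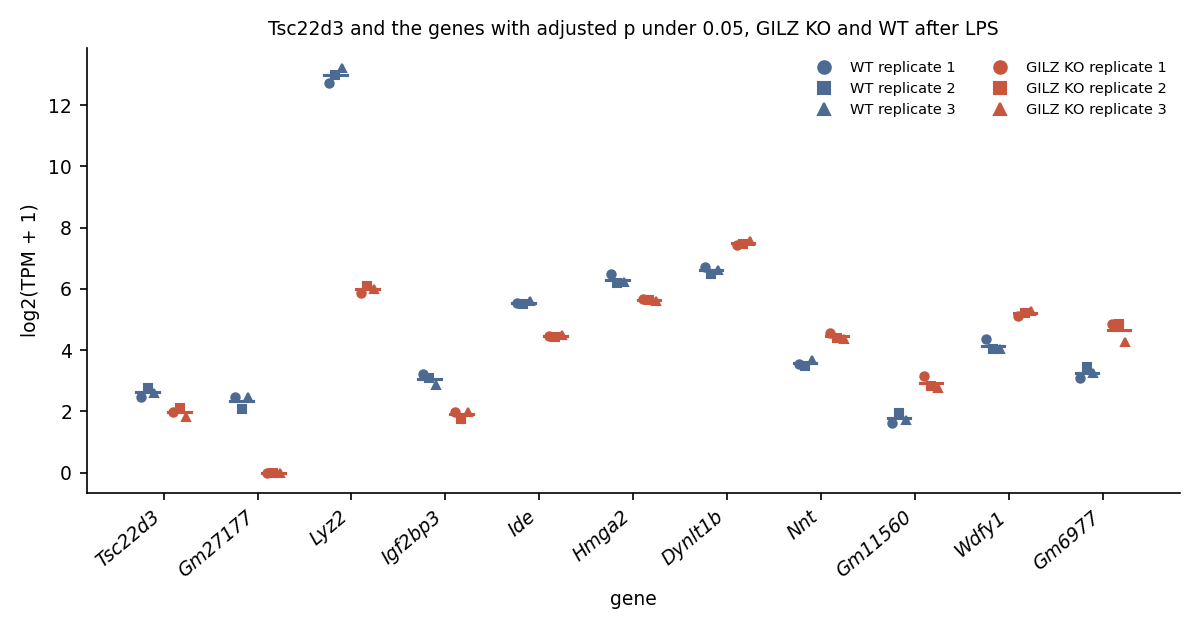
Expression of Tsc22d3 and of the 10 genes with an adjusted p under 0.05 in the 6 LPS libraries, as log2(TPM + 1); each point is a library, marker shapes give the replicate number, and bars are group means. The 3 GILZ KO libraries lie apart from the 3 WT libraries for each gene, with Lyz2 separated most and Gm27177 at 0 in GILZ KO.

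The untreated comparison shares no library with the one after LPS, although its cells may come from the same mice. There 12 of 12621 genes, or 0.0951%, passed the adjusted threshold. Lyz2, Nnt and Wdfy1 passed in both treatments, which is 30.0% of the genes called after LPS and 25.0% of those called without treatment. All 10 genes called after LPS had the same direction without treatment, with log2 fold changes of 0.95 for Nnt, 1.62 for Wdfy1, -0.98 for Ide (adjusted p = 0.0504), -1.15 for Igf2bp3 (adjusted p = 0.0563) and 0.77 for Dynlt1b (adjusted p = 0.0577). Hmga2 differed by -0.25 (adjusted p = 0.515) and Gm6977 by 0.19 (adjusted p = 0.889) without treatment, values nearer to 0 than after LPS. The difference between both treatments, tested with edgeR in all 18 libraries, did not pass for either. It was -0.48 for Hmga2 (adjusted p = 0.671) and 1.27 for Gm6977 (adjusted p = 0.675).

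Below the adjusted threshold many genes differed with no overlap between genotypes. Taking an unadjusted p-value under 0.05, 585 genes were higher (4.81% of those tested) and 586 lower (4.82%) in GILZ KO. All 3 GILZ KO libraries lay above all WT libraries in TPM for 1170 genes (9.62%) and below them for 810 (6.66%). The median log2 fold change of all genes was -0.001, and 49.8% were above 0. When genes were split by effective transcript length into 5 bins, the median went from 0.02 in the shortest genes to -0.014 in the longest. For any one gene, permuting 3 and 3 libraries exactly gives a two-sided p of 0.1 at the least.

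**Figure D2:**
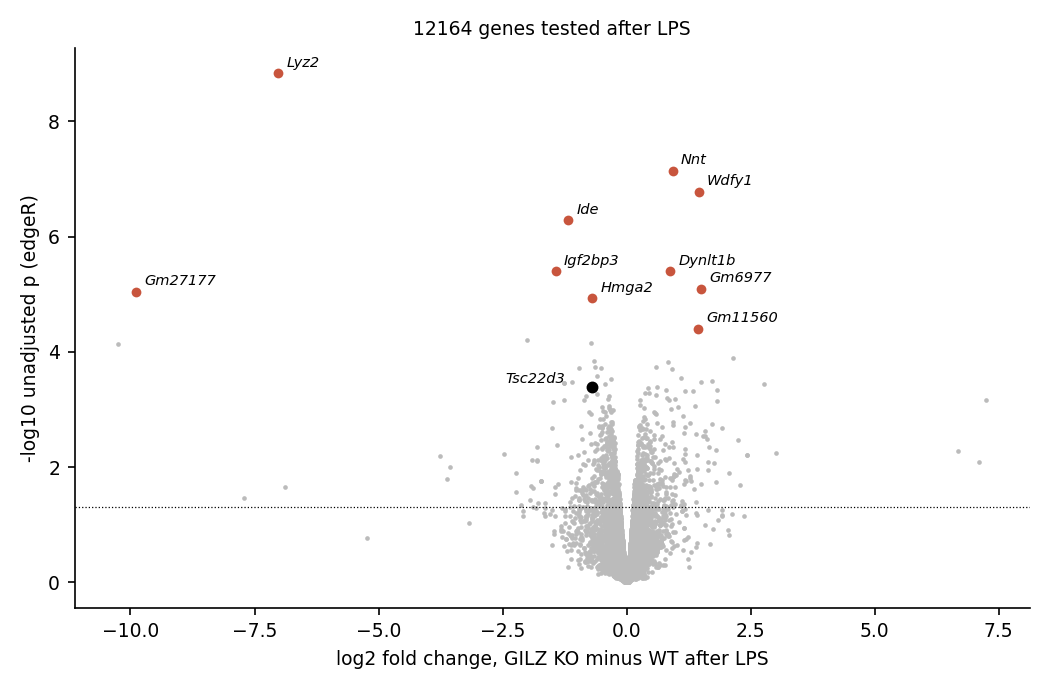
Log2 fold change, GILZ KO minus WT after LPS, against -log10 of the unadjusted p from edgeR for the 12164 genes tested; called genes are in red, Tsc22d3 in black, and the dotted line marks an unadjusted p of 0.05. Most genes lie close to 0, and the genes higher and lower in GILZ KO at an unadjusted p under 0.05 number 585 and 586.

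Genes below the threshold that were lower in GILZ KO included a growth factor, a miRNA host gene and an interferon-induced GTPase. Gdf3, a member of the TGF-β family, was at 16.71, 13.78 and 13.88 TPM in WT and at 4.76, 2.82 and 3.44 TPM in GILZ KO (log2 fold change -2.0, standard error 0.32, adjusted p = 0.0677 from edgeR). Without treatment Gdf3 passed with nearly the same value of -1.95 (adjusted p = 0.0351). Gm16867, a predicted protein-coding gene 0.22 Mb from Gm27177, was listed at 15.44, 15.73 and 21.74 TPM in WT and at 0, 0.35 and 0 TPM in GILZ KO, with at most 0.72 counts in a GILZ KO library (adjusted p = 0.0677).

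Mir155hg, the host transcript of miR-155, which targets negative regulators of inflammatory signalling, was at 68.78, 59.91 and 58.43 TPM in WT and at 38.02, 40.66 and 36.91 TPM in GILZ KO. The difference on the log2 scale was -0.71 (standard error 0.11, adjusted p = 0.0677), and 8 of 17 alternatives called it. Without treatment it was at 0.35 TPM or below in all 6 libraries, so the transcript was measured almost only after LPS. The miRNA itself is too short for these poly(A) libraries and was not measured. Its mature sequence is shown because it is what the host transcript gives rise to, with the seed (bases 2 to 8) in capitals, from RefSeq on GRCm38.p6 at chr16:84714143-84714165.
mmu-miR-155-5p: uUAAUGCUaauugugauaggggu

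Lhx2, a LIM homeobox transcription factor, was at 23.55, 20.79 and 21.41 TPM in WT and at 12.9, 16.91 and 15.01 TPM in GILZ KO (-0.6, adjusted p = 0.145). The noncoding transcript 2500002B13Rik gave -0.52 (adjusted p = 0.115). On the other side, Plk3, a stress-responsive polo-like kinase, was at 4.34, 5.68 and 6.01 TPM in WT and at 10.6, 8.17 and 10.22 TPM in GILZ KO (0.84, adjusted p = 0.115). Sephs2, an enzyme of selenocysteine synthesis, gave 0.59 (adjusted p = 0.115), and the phosphatase Ptpn1 0.44 (adjusted p = 0.153). Galnt12, a glycosyltransferase that starts O-glycosylation, gave 0.91 after LPS (adjusted p = 0.115) and passed without treatment (0.65, adjusted p = 0.0302). The pseudogenes Gm6436 (2.15) and Gm12254 (1.49) and the gene ENSMUSG00000082209 (1.09), which has no symbol, also lay above WT in each GILZ KO library. For the genes of this paragraph, no overlap was a condition for naming them.

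Genes were next grouped into 27 lists, of which 26 had tested members, 822 genes in all. No member of these lists passed the adjusted threshold in the edgeR fit that gives the values here. Some named members passed in part of the 17 alternatives. Cxcl11 and Fosl2 passed in 5 each, Ccne2 in 4, and Herpud1, Ccnd1 and Slc7a11 in 3 each. Tsc22d3 passed in 2, and Cxcl1, Marco, Ncf1 and Ptgs2 in 1 each. Other named members, such as Csf2 and Iigp1, passed in none. In the median over a list, all 3 GILZ KO libraries lay above all 3 WT libraries for cytokines, cholesterol synthesis, MHC class II and the unfolded protein response. They lay below for metalloproteinases, and the genotypes overlapped in the other 21 lists. For any one list, exact permutation of 3 and 3 libraries gives such a separation a two-sided p of 0.1, so some of 26 lists can separate without a difference. The gap was narrow for the unfolded protein response, with 0.006 in the highest WT library and 0.008 in the lowest GILZ KO library. The median fold change kept its sign in all 17 alternatives for 14 of the 26 lists and turned in 1 or more for the other 12, which are the lists of NF-κB, LPS signalling, nitric oxide and prostanoid enzymes, inflammasome, phagocytic receptors, complexes II to V, both sets of ribosomal proteins, LXR and PPAR gamma, cell cycle, lysosome and MHC class I.

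**Figure D3:**
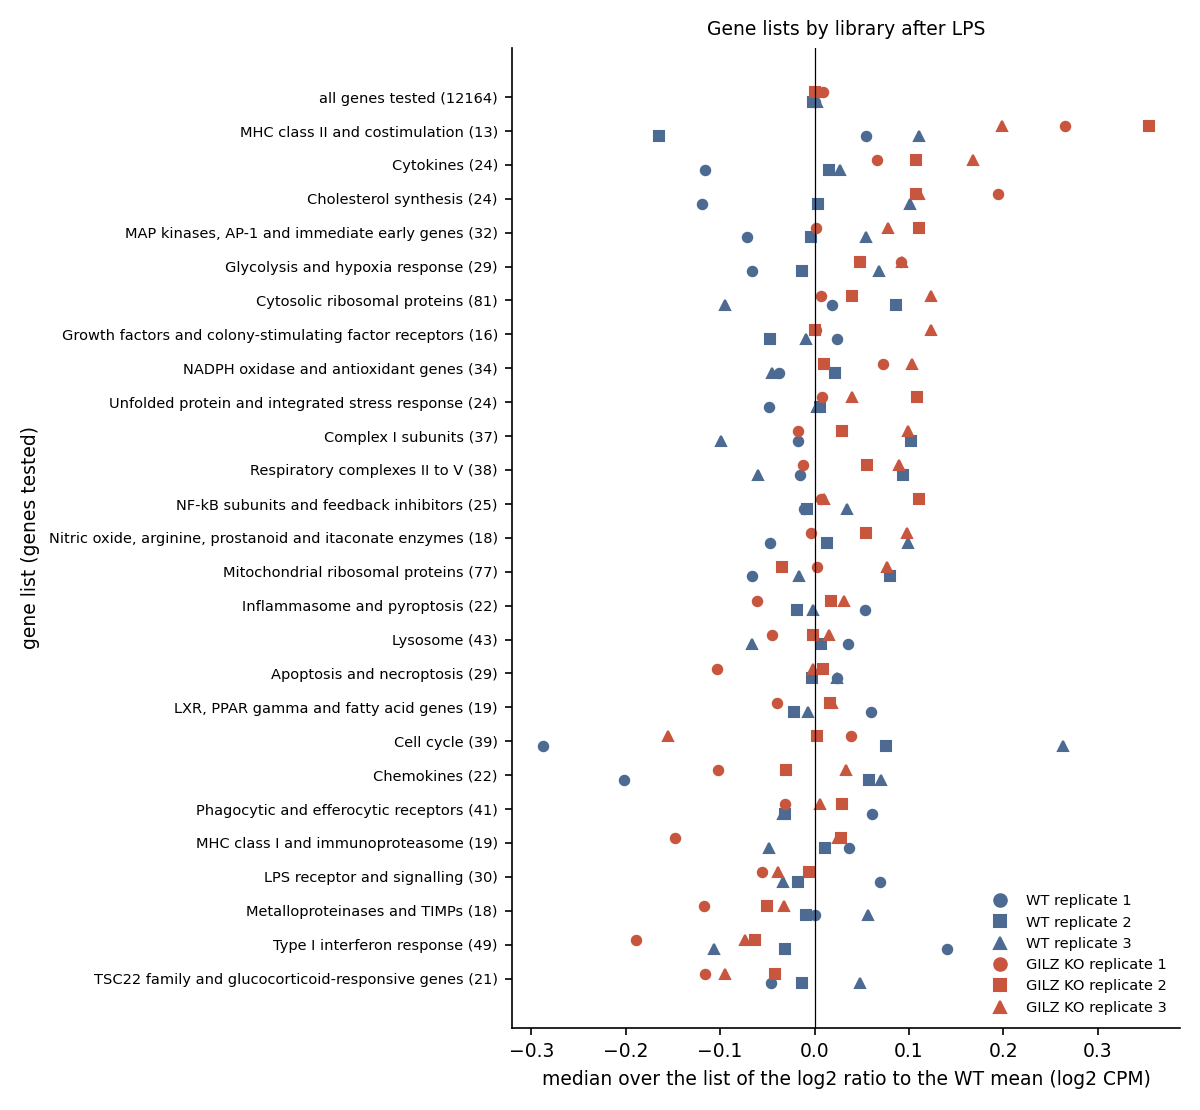
Median over each gene list of the log2 ratio to the WT mean (log2 CPM, counts scaled to the library total) in each of the 6 LPS libraries; the number of tested genes is in brackets and marker shapes give the replicate. The genotypes overlap in 21 of 26 lists, and WT replicate 1 and GILZ KO replicate 1 lie farthest apart for the type I interferon response.

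The type I interferon response was, among the 26 lists, the one with the most uniform direction after LPS. Of 49 tested members, 47 were lower and 2 higher in GILZ KO, where 49.8% of all genes were higher, and the median log2 fold change was -0.115. An unadjusted p-value under 0.05 was found for 8 members lower in GILZ KO (16.3%, against 4.82% of all genes) and for 0 higher. All 3 GILZ KO libraries lay below WT for 10 members, where 6.66% of all genes did so, and no member passed the adjusted threshold.

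Iigp1, a GTPase that attacks the vacuoles of intracellular parasites, was at 282.0, 221.18 and 194.69 TPM in WT and at 122.51, 187.75 and 165.62 TPM in GILZ KO (-0.56, standard error 0.18, adjusted p = 0.366 from edgeR). Mx1, an interferon-induced GTPase, was at 1515.03, 1347.83 and 1415.76 TPM in WT and at 1143.63, 1301.05 and 1170.67 TPM in GILZ KO (-0.24, adjusted p = 0.393). Tgtp1, another interferon-induced GTPase with a near-identical copy, was not on the list and was at 115.0, 91.97 and 117.84 TPM in WT against 57.39, 70.6 and 65.63 TPM in GILZ KO (-0.64, adjusted p = 0.115). In these 3 genes the genotypes did not overlap, which was a condition for naming them. Other members lay close to WT, such as Isg15, a ubiquitin-like protein, at -0.04, and Irf7, a transcription factor of the interferon genes, at -0.04.

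A pair of libraries carried much of this difference. WT replicate 1 was the highest of the 6 libraries for 43 of the 49 members, and GILZ KO replicate 1 the lowest for 41. By library, the list median relative to the WT mean was 0.14, -0.031 and -0.107 in WT and -0.189, -0.063 and -0.074 in GILZ KO, so that replicates 2 and 3 of both genotypes overlapped. Without WT replicate 1, the median was -0.047 and 36 members were lower. Without GILZ KO replicate 1, it was -0.072 and 39 were lower.

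Without treatment the same genes had the opposite direction. There 44 of 49 were higher in GILZ KO, at a median of 0.273 on the log2 scale, and an unadjusted p-value under 0.05 was found for 28 of them, where 5.4% of all genes were higher at that level. None passed the adjusted threshold from edgeR. On the log2(TPM + 1) scale the list median relative to the WT mean was 0.404, 0.225 and 0.211 in the untreated GILZ KO libraries and 0.067, 0.021 and -0.051 in WT, with no overlap. The untreated levels were low, for example 2.87, 3.35 and 3.04 TPM for Mx1 in WT against 8.91, 5.19 and 3.63 TPM in GILZ KO.

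**Figure D4:**
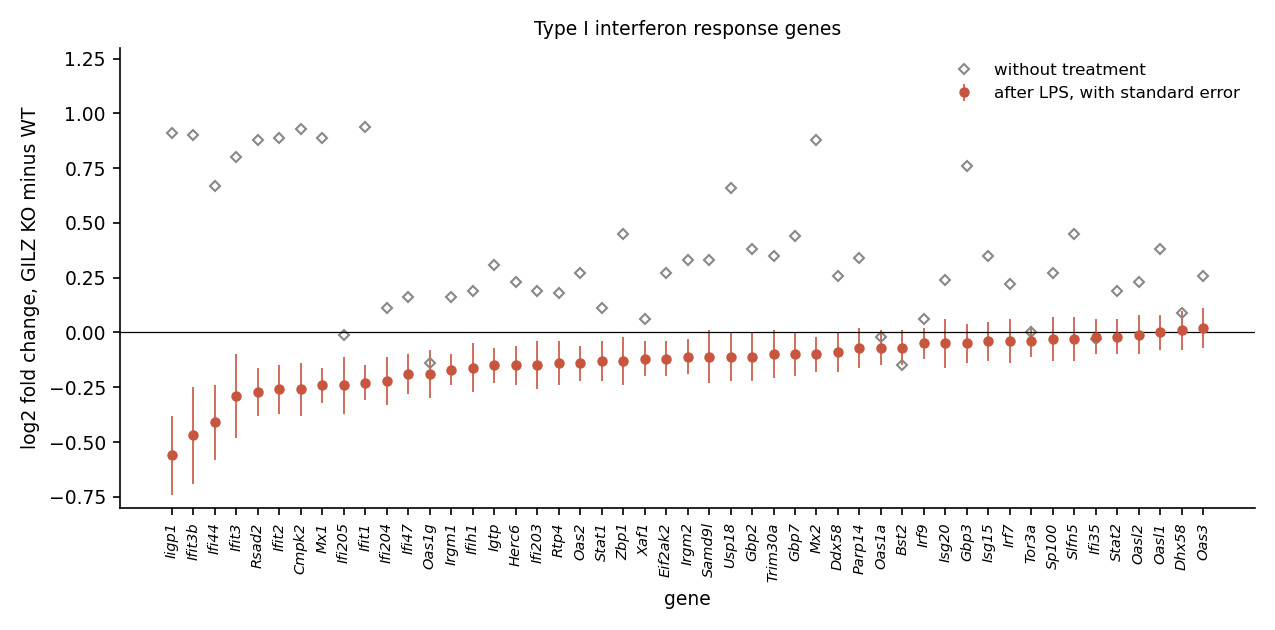
Log2 fold change, GILZ KO minus WT, of the 49 tested genes of the type I interferon response, ordered by the value after LPS; red points show LPS with the standard error, open symbols show untreated cells. After LPS 47 genes lie below 0, and without treatment 44 lie above 0.

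The difference between both treatments was tested in a fit of all 18 libraries, in which the LPS response of GILZ KO was compared with that of WT. Its median over the list was -0.413. Of 49 members, 30 had an unadjusted p-value under 0.05 with a smaller response in GILZ KO, against 4.3% of all genes. None passed the adjusted threshold. This test uses the same libraries as both comparisons above, with list medians of -0.115 after LPS and 0.273 without treatment. It is therefore not separate from them, and the untreated levels were low.

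Interferon-response genes are known to be activated through the interferon-stimulated response element. The letters GAAANNGAAA (or TTTCNNTTTC, its reverse complement) were searched for in the RefSeq promoter windows of GRCm38.p6, which span 250 bases before to 50 bases after a gene's start. They were found for 23 of 37 members with a window (62.2%), and for 3.99% of 27025 genes in that set. The median log2 fold change after LPS was -0.11 in members with the letters and -0.08 in those without. The windows of Ifit1, a translation inhibitor, of the chemokine Cxcl10 and of Tgtp1 are shown because they are examples of interferon-induced genes that lay below WT in every GILZ KO library, and matches are in capitals. They lie at chr19:34640639-34640938 on the plus strand, chr5:92348840-92349139 on the minus strand and chr11:48992197-48992496 on the minus strand.
Ifit1: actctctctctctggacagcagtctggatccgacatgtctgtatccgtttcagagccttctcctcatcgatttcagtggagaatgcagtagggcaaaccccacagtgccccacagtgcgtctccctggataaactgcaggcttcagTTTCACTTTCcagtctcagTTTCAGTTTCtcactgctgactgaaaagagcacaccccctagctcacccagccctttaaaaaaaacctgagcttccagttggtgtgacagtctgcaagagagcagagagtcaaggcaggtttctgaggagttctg
Cxcl10: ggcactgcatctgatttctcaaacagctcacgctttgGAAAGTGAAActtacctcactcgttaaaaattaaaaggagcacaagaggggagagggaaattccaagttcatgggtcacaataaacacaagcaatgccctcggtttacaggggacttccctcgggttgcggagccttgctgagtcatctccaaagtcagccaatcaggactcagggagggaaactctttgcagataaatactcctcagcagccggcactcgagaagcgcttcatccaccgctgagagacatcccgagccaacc
Tgtp1: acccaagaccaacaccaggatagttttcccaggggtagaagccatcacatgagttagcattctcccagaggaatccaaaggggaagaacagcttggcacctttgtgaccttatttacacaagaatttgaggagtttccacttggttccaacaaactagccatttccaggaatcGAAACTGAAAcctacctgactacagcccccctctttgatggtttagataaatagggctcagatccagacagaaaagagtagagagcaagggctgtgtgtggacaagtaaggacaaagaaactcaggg

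Cytokines did not share 1 direction. Of 24 tested, 14 were higher and 10 lower in GILZ KO (median 0.135), and an unadjusted p-value under 0.05 was found for 3 higher (12.5%, against 4.81% of all genes) and 2 lower (8.33%, against 4.82%). Csf2, which encodes the growth factor GM-CSF, was at 6.57, 10.12 and 7.98 TPM in WT and at 22.22, 15.62 and 16.66 TPM in GILZ KO (1.14, standard error 0.34, adjusted p = 0.341 from edgeR). Il12b, the shared subunit of IL-12 and IL-23, was at 30.35, 33.81 and 35.22 TPM in WT and at 40.97, 51.26 and 53.77 TPM in GILZ KO (0.55, adjusted p = 0.362). Neither overlapped between the genotypes, which was a condition for naming members of a list by their p-value. Il15, a cytokine for NK and memory T cells that is induced by interferon, was at 269.32, 251.27 and 218.59 TPM in WT and at 193.66, 198.29 and 197.05 TPM in GILZ KO, below WT in each library (-0.34, adjusted p = 0.277). The list median lay between 0.066 and 0.168 in the GILZ KO libraries and between -0.116 and 0.027 in WT. The median of fold changes was 0.031 without GILZ KO replicate 3, with 12 members higher and 12 lower, and 0.045 without WT replicate 1.

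None of the 9 genes fixed as a panel of inflammatory markers passed the adjusted threshold in the fit of the 9 LPS libraries. Tnf was at 1870.08, 2101.22 and 2093.17 TPM in WT and at 2306.29, 2268.14 and 2138.86 TPM in GILZ KO (0.14, adjusted p = 0.676). Il6 was at 874.04, 1087.09 and 1171.28 TPM in WT and at 1101.02, 1260.65 and 1183.98 TPM in GILZ KO, with overlap (0.17, adjusted p = 0.865). Il1b was at 3740.6, 4802.14 and 4656.23 TPM in WT and at 5749.12, 5700.74 and 6103.12 TPM in GILZ KO (0.4, standard error 0.25, adjusted p = 0.648). The groups did not overlap for Tnf and Il1b. Ptgs2, the inducible cyclooxygenase, was at 804.98, 762.93 and 914.0 TPM in WT and above that in GILZ KO, at 1131.91, 1132.82 and 1203.22 TPM (0.48, adjusted p = 0.539). It passed in 1 of 17 alternatives, the edgeR fit of only the 6 libraries (adjusted p = 0.0477). Nos2, the inducible nitric oxide synthase, gave 0.02 (adjusted p = 0.965), Il10, an anti-inflammatory cytokine, -0.37 (adjusted p = 0.652) and Arg1, arginase, -0.41 (adjusted p = 0.565), each with overlapping libraries. Of the 18 tested genes for nitric oxide, arginine, prostanoid and itaconate enzymes, 11 were higher and 7 lower, with a median of 0.017.

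**Figure D5:**
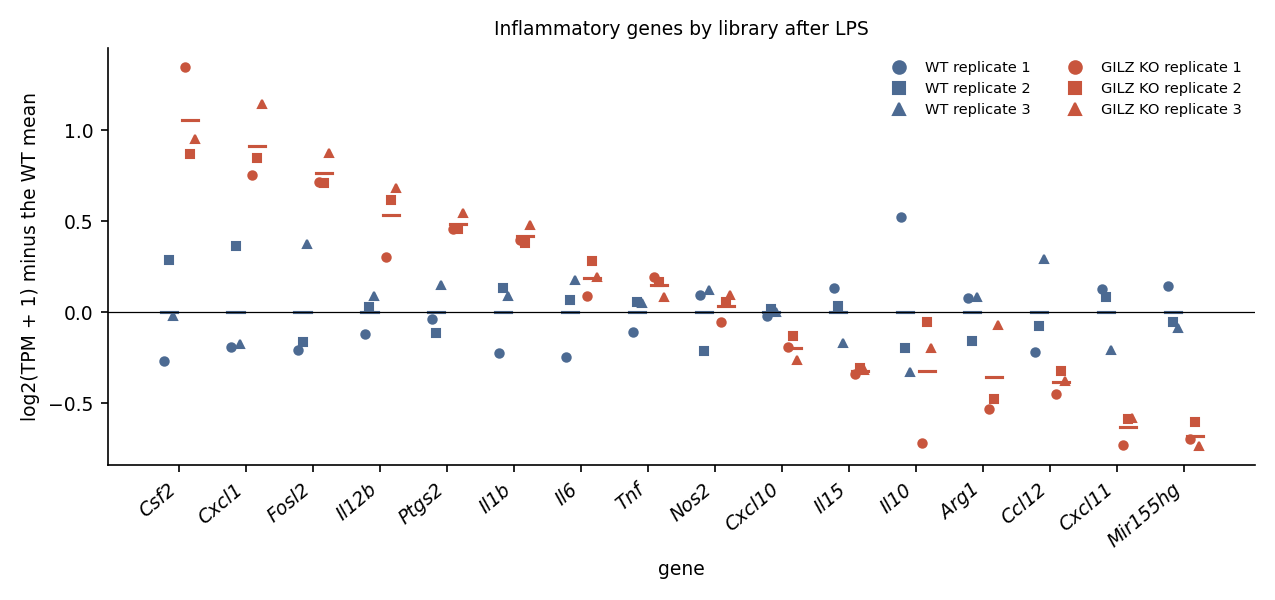
Inflammatory genes in the 6 LPS libraries as log2(TPM + 1) minus the WT mean of the gene; points are libraries, marker shapes give the replicate and bars are group means. Csf2 and Cxcl1 lie highest in GILZ KO, Cxcl11 and Mir155hg lowest, and Nos2 and Il6 overlap between the genotypes.

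Chemokines went both ways. Of 22 tested, 8 were higher and 14 lower in GILZ KO (median -0.038), and an unadjusted p-value under 0.05 was found for 1 higher (4.55%, against 4.81% of all genes) and 4 lower (18.2%, against 4.82%). Cxcl1, a neutrophil attractant and NF-κB target, was at 132.47, 195.62 and 134.31 TPM in WT and at 256.29, 273.47 and 336.43 TPM in GILZ KO (0.89, standard error 0.2, adjusted p = 0.192 from edgeR). Cxcl11, an interferon-induced T cell attractant annotated as a polymorphic pseudogene, was at 188.22, 182.6 and 149.27 TPM in WT and at 103.45, 114.38 and 115.04 TPM in GILZ KO (-0.65, standard error 0.11, adjusted p = 0.115). Cxcl10, which lies 0.01 Mb from it, was at 13809.18, 14212.57 and 14028.21 TPM in WT and at 12276.38, 12819.27 and 11686.95 TPM in GILZ KO (-0.2, adjusted p = 0.476). The genotypes did not overlap in these 3 genes, which for Cxcl1 and Cxcl11 was a condition for naming them. Ccl12, a monocyte attractant named under the same condition, was also below WT in each GILZ KO library (-0.41, adjusted p = 0.445).

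Among 30 tested genes of the LPS receptor and its signalling, 9 were higher and 21 lower, with a median of -0.046, which was 0.007 without WT replicate 1. Ikbkb, a kinase of the inhibitors of NF-κB, gave 0.22 (adjusted p = 0.348) and Tlr3, the receptor of double-stranded RNA, -0.35 (adjusted p = 0.424). Neither of them overlapped, which was a condition for naming them. Tlr4 itself had means of 39.9 TPM in WT and 32.9 TPM in GILZ KO, with overlapping libraries (-0.24, standard error 0.12, adjusted p = 0.552), and its adaptor Myd88 gave -0.01. Of 25 NF-κB subunits and feedback inhibitors, 15 were higher and 10 lower, with a median of 0.024, which was -0.018 without GILZ KO replicate 2. Tnip1, a partner of the deubiquitinase A20, was at 319.68, 294.22 and 345.21 TPM in WT and at 387.26, 369.72 and 378.56 TPM in GILZ KO (0.23, adjusted p = 0.376). Irak3, a kinase-dead inhibitor of Toll-like receptor signalling that lies 2.86 Mb from Lyz2, gave 0.39 (adjusted p = 0.397), and the deubiquitinase Cyld -0.16 (adjusted p = 0.497).

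MAP kinases, AP-1 and immediate early genes had 19 members higher and 13 lower of 32 tested, with a median of 0.075, and an unadjusted p-value under 0.05 for 5 higher (15.6%, against 4.81% of all genes) and 3 lower (9.38%, against 4.82%). Fosl2, an AP-1 subunit, was at 6.61, 6.85 and 10.39 TPM in WT and at 13.43, 13.37 and 15.13 TPM in GILZ KO (0.81, standard error 0.17, adjusted p = 0.163), and 5 of 17 alternatives called it. Without treatment it differed by 0.09, and the difference between both treatments did not pass (0.69, adjusted p = 0.616 from edgeR). Fosl1, a related subunit, gave 0.37 (adjusted p = 0.416), while Fos was at 115.68, 109.15 and 93.57 TPM in WT and at 85.56, 79.6 and 87.78 TPM in GILZ KO (-0.4, adjusted p = 0.439).

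Among the 26 lists, redox genes had the largest share of members higher at an unadjusted p-value under 0.05. Of 34 NADPH oxidase and antioxidant genes tested, 23 were higher and 11 lower with a median of 0.045, and 6 (17.6%, against 4.81% of all genes) were higher at that level. Slc7a11, the cystine transporter that supplies glutathione synthesis, was at 28.73, 26.42 and 23.81 TPM in WT and at 43.52, 35.22 and 40.47 TPM in GILZ KO (0.6, standard error 0.12, adjusted p = 0.161 from edgeR). Prdx5, a peroxiredoxin, was at 1281.58, 1315.98 and 1275.65 TPM in WT and at 1506.15, 1719.88 and 1686.14 TPM in GILZ KO (0.29, adjusted p = 0.341). In contrast Ncf1, the p47phox subunit of the phagocyte NADPH oxidase, was at 387.02, 351.36 and 371.32 TPM in WT and at 308.71, 313.31 and 324.75 TPM in GILZ KO (-0.27, standard error 0.06, adjusted p = 0.192). None of these overlapped, which was a condition for naming them. In the list median the genotypes overlapped.

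Of 24 genes of cholesterol synthesis, 20 were higher and 4 lower, with a median of 0.125. The list median was -0.119, 0.004 and 0.101 in WT and 0.194, 0.108 and 0.111 in GILZ KO, close to touching between WT replicate 3 and GILZ KO replicate 2, and it was 0.058 without WT replicate 1. Mvd, an enzyme of the mevalonate pathway, was at 4.55, 4.55 and 6.03 TPM in WT and at 8.01, 6.14 and 8.25 TPM in GILZ KO (0.56, adjusted p = 0.373). Lss, lanosterol synthase, had means of 9.37 and 14.1 TPM but a log2 fold change of counts of only 0.26 (adjusted p = 0.459), as its estimated effective length was 2252 bases in WT and 1773 bases in GILZ KO. Of 19 genes of LXR, PPAR gamma and fatty acid metabolism, 9 were higher and 10 lower, with a median of -0.027.

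MHC class II and costimulation had 10 of 13 tested genes higher, with a median of 0.181. The GILZ KO libraries lay at 0.265, 0.355 and 0.199 in the list median, above WT. H2-Eb1, an MHC class II β chain, was at 5.02, 4.79 and 11.08 TPM in WT and at 11.71, 11.44 and 13.69 TPM in GILZ KO (0.8, adjusted p = 0.452). H2-DMb1, which helps to load peptides, gave 0.31 (adjusted p = 0.427). Without treatment the median log2 fold change was 0.198, and in GILZ TG against the same WT libraries after LPS it was 0.394. MHC class I and immunoproteasome genes had 7 higher and 12 lower of 19, with a median of -0.039, and the chaperone Pdia3 of the peptide-loading complex gave -0.17 (adjusted p = 0.482). That median was 0.022 without GILZ KO replicate 1 and 0.015 with limma on log2(TPM + 1).

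Of 39 cell cycle genes, 12 were higher and 27 lower, with a median of -0.029. Both cyclins of the G1 phase named by the rule were lower in GILZ KO. Ccne2, cyclin E2, was at 6.43, 6.26 and 7.19 TPM in WT and at 4.06, 3.72 and 3.6 TPM in GILZ KO (-0.96, standard error 0.17, adjusted p = 0.115), and Ccnd1, cyclin D1, at 152.62, 124.01 and 113.02 TPM against 83.58, 86.99 and 83.33 TPM (-0.6, standard error 0.12, adjusted p = 0.16). Without treatment they differed by -0.22 and -0.01. The difference between both treatments did not pass in edgeR for Ccne2 (-0.76, adjusted p = 0.477) or Ccnd1 (-0.62, adjusted p = 0.382). The list median went from -0.288 in WT replicate 1 to 0.263 in WT replicate 3, a wider range than in GILZ KO. Without WT replicate 1 the median was -0.199, and without WT replicate 3 it was 0.098, so its sign depended on which WT library was used.

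The lists of energy metabolism and translation were shifted by little. Of 29 genes of glycolysis and the hypoxia response, 23 were higher (79.3%) and 6 lower, with a median of 0.071. Hk1, a hexokinase, gave 0.14 (adjusted p = 0.472), and Vegfa, an angiogenic factor, -0.52 (adjusted p = 0.459). Cytosolic ribosomal proteins had 68 of 81 higher with a median of 0.051, but without WT replicate 3 this was 35 of 82 with a median of -0.012. These are short genes, with a median effective length of 555 bases, and in the fit with a length term 49 of 81 were higher with a median of 0.01. Rpl31, a protein of the large subunit, gave 0.2 (adjusted p = 0.424). Complex I subunits of the respiratory chain had 23 of 37 higher (median 0.03), complexes II to V 28 of 38 (median 0.029) and mitochondrial ribosomal proteins 42 of 77 (median 0.012). With the length term these became 19 of 37 (0.003), 19 of 38 (0.006) and 36 of 77 (-0.006). With 1 library left out, the median of complex I ranged from 0.007 without WT replicate 3 to 0.074 without WT replicate 2, and that of complexes II to V from -0.002 to 0.086 without the same libraries. For mitochondrial ribosomal proteins it ranged from -0.019 without GILZ KO replicate 3 to 0.048 without WT replicate 2. Ndufa1 and Ndufs6 of complex I gave 0.3 and 0.26 (adjusted p = 0.241 and 0.427), Cox8a of cytochrome c oxidase 0.2 (adjusted p = 0.48) and Mrpl46 0.22 (adjusted p = 0.393). The mitochondrially encoded subunits were not analysed here.

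In the unfolded protein and integrated stress response, 16 of 24 tested genes were higher, with a median of 0.035. Herpud1, which takes part in degradation at the endoplasmic reticulum, was at 14.07, 15.72 and 20.56 TPM in WT and at 25.99, 23.56 and 27.2 TPM in GILZ KO (0.62, standard error 0.12, adjusted p = 0.15 from edgeR). Ppp1r15a, which encodes the phosphatase subunit GADD34, gave 0.16 (adjusted p = 0.461). Inflammasome and pyroptosis genes were split evenly, with 11 higher and 11 lower and a median of -0.002. There the sensor Nlrp3 gave 0.18 (adjusted p = 0.497), while the adaptor Pycard was at 44.17, 49.3 and 51.47 TPM in WT and at 40.26, 39.47 and 43.18 TPM in GILZ KO (-0.25, adjusted p = 0.35), and Nek7, an activator of Nlrp3, gave -0.19 (adjusted p = 0.424). Of 29 apoptosis and necroptosis genes, 10 were higher and 19 lower (median -0.023). The death receptor Tnfrsf10b gave 0.41 (adjusted p = 0.272) and Bad 0.24 (adjusted p = 0.511), against -0.2 for Bid (adjusted p = 0.416) and -0.28 for the caspase inhibitor Xiap (adjusted p = 0.416).

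Phagocytic and efferocytic receptors had 20 members higher and 21 lower of 41, with a median of -0.039. Marco, a scavenger receptor for bacteria, was at 62.7, 83.15 and 71.7 TPM in WT and at 103.71, 195.8 and 112.86 TPM in GILZ KO (0.92, standard error 0.25, adjusted p = 0.277). GILZ TG, which was fitted together with these groups against the same WT libraries, had 23.45, 23.06 and 36.27 TPM (-1.4, adjusted p = 0.0459 from edgeR). For Marco, as for Tsc22d3, GILZ KO and GILZ TG lay on opposite sides of WT. Marco was not alone in this among the named genes. Fold changes of GILZ TG were also of opposite sign for Il12b (-0.88, adjusted p = 0.0682 from edgeR) and Csf2 (-0.91, adjusted p = 0.265). The same held for Irak3 (-0.42, adjusted p = 0.174) and Tnfrsf10b (-0.33, adjusted p = 0.194), and none of these 4 passed in either genotype. Other genes below the threshold in GILZ KO passed in GILZ TG with the same sign. Among them were Gdf3 (-1.65, adjusted p = 0.0423 from edgeR), Psap (0.4, adjusted p = 0.0357) and Ppp1r15a (0.4, adjusted p = 0.0214). Kitl also passed in GILZ TG (0.65, adjusted p = 0.0493), but in GILZ KO it was at 0.05, with libraries that overlapped WT. Gas6, a bridge between apoptotic cells and their receptors, was at 83.73, 85.24 and 85.72 TPM in WT and at 70.3, 70.78 and 71.35 TPM in GILZ KO (-0.27, standard error 0.07, adjusted p = 0.273), where the spread within each genotype was small. Sirpa, an inhibitory receptor for CD47, gave 0.22 (adjusted p = 0.393), and the complement receptor C3ar1 -0.37 (adjusted p = 0.303).

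Lysosomal genes had 16 higher and 27 lower of 43 (median -0.02), which became 26 higher and 17 lower (0.009) without WT replicate 1. Psap, a precursor of sphingolipid activators, gave 0.16 (adjusted p = 0.514), and Tfeb, a transcription factor of lysosomal genes, 0.4 in counts (adjusted p = 0.516), with an effective length of 1785 bases in WT and 1276 bases in GILZ KO. Metalloproteinases and their inhibitors had 6 higher and 12 lower of 18, with a median of -0.067, and Mmp25 gave -0.41 (adjusted p = 0.268). Of 16 growth factors and colony-stimulating factor receptors, 10 were higher and 6 lower (median 0.049). Gdf15, a stress-induced TGF-β relative, was at 4.74, 3.69 and 4.99 TPM in WT and at 7.14, 7.11 and 8.14 TPM in GILZ KO (0.71, adjusted p = 0.241), and Igf1 gave -0.21 (adjusted p = 0.393).

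For the LPS response as a whole, 2 of 13169 genes, or 0.0152%, differed between GILZ KO and WT, Tsc22d3 and Kitl. Kitl, the ligand of the stem cell receptor Kit, was at 36.03, 28.81 and 26.41 TPM in untreated WT and at 72.67, 67.5 and 69.75 TPM in untreated GILZ KO (1.08, adjusted p = 0.00102 from edgeR). After LPS it was at 13.2, 12.25 and 12.64 TPM in WT and at 12.84, 17.16 and 12.15 TPM in GILZ KO, with overlap (0.05, adjusted p = 0.93). The difference of the responses was -1.06 (standard error 0.16, adjusted p = 0.0372). That call was lost with DESeq2's size factors and in 5 of the 6 fits without 1 replicate, and 8 genes were called with the replicate number within each genotype as a block.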

How the data were processed

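Poly(A) RNA of 18 BMM libraries was sequenced with reads of 75 nt. The authors deposited, per library and gene, expected counts (estimated reads, shared between genes where reads match several) and TPM, together with transcript lengths. Reads were checked with FastQC 0.11.2 and mapped with the grape-nf pipeline to GRCm38 (mm10), as given in the study's methods and the submitters' processing notes; the annotation release was not given in the sources used here. Tables of the authors' own DESeq2 fold changes and p-values were deposited as well and were not used.

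Expected counts were rounded, at most 1 blank identifier per library was left out, and edgeR 4.0.16 (TMM, its default filter on low counts, quasi-likelihood test, Benjamini-Hochberg adjustment over all genes tested, threshold 0.05) was fitted to the 9 LPS libraries, with GILZ TG included to estimate the spread. Unless stated otherwise, each adjusted p and log2 fold change is GILZ KO against WT from that fit. The 9 untreated libraries were fitted in the same way, and the LPS response in all 18. Levels are TPM. Counting error alone limits genes with few reads. Symbols and coordinates of GRCm38 were found for 37570 of 38887 identifiers. limma 3.58.1 and DESeq2 1.42.0 in R 4.3.3 served as alternatives, and the procedure was tested on simulated data.

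The genes and lists were chosen with earlier results of these data known. Named were Tsc22d3, Lyz2 and Lyz1; all genes called; the 8 with the smallest p in each direction among the others without overlap and with at least 5 TPM in the higher group; up to 2 members per list and direction with an unadjusted p under 0.05 and no overlap; a panel of 9 inflammatory genes; and genes called for the LPS response. Tsc22d1, Tsc22d2, Tsc22d4, Tlr4, Myd88, Isg15, Irf7 and the Ifit1 promoter were added after their values had been seen. Lists are described by counts and medians and were not tested as sets. A few genes that the rule names are not reported here.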

Additional observations from a re-analysis of the deposited data

Results flagged for a closer look

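The difference between GILZ KO and WT was itself different after LPS and without treatment for 2 genes, by the interaction term of edgeR over all 18 libraries. For Tsc22d3 the log2 fold change after LPS was 2.02 higher than without treatment (standard error 0.22, adjusted p = 0.000782), with -0.69 after LPS and -2.74 without treatment. For Kitl it was lower after LPS, by -1.06 (standard error 0.16, adjusted p = 0.0372), with 0.05 after LPS and 1.08 without treatment. The cause of either difference was not tested.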

How the results depend on the processing

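The 10 genes called after LPS became 100 with DESeq2, 88 without a filter on low counts, 27 in a fit of the 6 libraries, 29 in a fit of all 18 and 17 with limma on log2(TPM + 1), and between 4 and 23 when 1 library was left out. For the LPS response, the 2 genes became 21 with DESeq2, 1 with DESeq2's size factors and 1 to 3 with a replicate left out. For untreated cells the 12 became 79 with DESeq2 and 5 to 6 with a library left out. The causes were not tested.

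Replicate numbers did not pair GILZ KO with WT after LPS, where deviations of same-numbered libraries correlated at -0.057, -0.024 and -0.09. Those of same-numbered untreated and LPS libraries correlated at 0.264, -0.013 and 0.055 in WT and at -0.033, 0.086 and 0.095 in GILZ KO. Whether such libraries share a preparation is not given in the labels. With the replicate number as a block 11 genes were called, 8 of the 10 among them, and 9 in untreated cells. With the replicate number within each genotype as a block across treatments, 8 genes were called for the LPS response.

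Of 1479 combinations of named gene and alternative, 1364 kept direction and side of the threshold, 80 newly passed, 31 no longer passed and 4 reversed. The reversals were of genes near 0: Nos2 ranged from -0.07 (without WT replicate 2) to 0.08, with -0.02 without GILZ KO replicate 3, and Kitl from -0.07 (without GILZ KO replicate 2) to 0.13, with -0.01 without WT replicate 2.

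Of 442 list medians under alternatives, 424 moved by less than the spread between replicates. With limma on log2(TPM + 0.1) and log2(TPM + 1), the median was 0.006 and 0.005 for phagocytic receptors, 0.095 and 0.093 for NADPH oxidase and antioxidant genes, and 0.031 in both for LXR, PPAR gamma and fatty acid genes; for metalloproteinases it was -0.027 with log2(TPM + 1). With 1 library left out, medians ranged from -0.166 to -0.052 for the TSC22 and glucocorticoid list, 0.031 (without GILZ KO replicate 3) to 0.173 for cytokines, -0.063 to 0.007 (without WT replicate 1) for LPS signalling, 0.002 (without GILZ KO replicate 2) to 0.095 for MAP kinases and AP-1, -0.059 to 0.005 for the inflammasome, -0.042 to 0.014 for phagocytic receptors and -0.051 to 0.052 for LXR and PPAR gamma. The lower depth of GILZ KO limits what genes with few counts can show.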
